A study of Homo sapiens with 12 samples.

Results

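Interferons are secreted antiviral cytokines, and the 10 genes described here encode 5 of their ligands and 5 chains of their receptors. They are the rows for IFNB1, IFNE, IFNL1, IFNL2, IFNL3, IFNAR1, IFNAR2, IFNLR1, IFNGR1 and IFNGR2 among the 58735 genes of an RNA-seq table, taken by name and not by any measured value. The cells were NCM460, a human line labelled as normal colonic epithelium, with 3 libraries in each of 4 groups. All libraries carry the wild-type label except those in which HTRA2, a mitochondrial serine protease, was silenced by siRNA. The groups were medium alone, TNF-α, TNF-α with 5-OH-TMT (Bufotenidine in the labels, a quaternary ammonium derivative of bufotenine) and TNF-α with HTRA2 knockdown. The labels of the TNF-α group name no siRNA, so transfection and loss of HTRA2 cannot be told apart. The paper compares HTRA2 siRNA with a control siRNA, but no library is labelled as such a control. It lists 3 siRNAs against HTRA2, and the knockdown libraries are titled si1, si2 and si3. No source says whether these 3 libraries share 1 siRNA. The question was which interferon transcripts, and which receptor chains to receive them, were present where interferon-stimulated genes were high.

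Type I interferons such as IFN-β and IFN-ε signal through the receptor pair IFNAR1 and IFNAR2, and type III (λ) interferons through IFNLR1 paired with IL10RB, a chain shared with the interleukin-10 family. Both pairs use the kinases JAK1 and TYK2 to activate ISGF3, a transcription factor complex with STAT2 and IRF9 that binds the interferon-stimulated response element (ISRE). Type II interferon, IFN-γ, uses IFNGR1 and IFNGR2, with the kinases JAK1 and JAK2, and epithelia are known as sources and targets of the λ interferons.

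The upstream sequences of 3 ligand genes are shown because the λ genes and IFNB1 differed in their reads. They come from RefSeq (GRCh38.p14) and read 5′ to 3′ in the direction of the gene, as the bases before the RefSeq start, shortened where the gene as given in the deposited table begins earlier. Capitals mark an ISRE-type match (GAAA, any 2 bases, GAAA) on either strand, or a match to the κB consensus on either strand.
IFNL1: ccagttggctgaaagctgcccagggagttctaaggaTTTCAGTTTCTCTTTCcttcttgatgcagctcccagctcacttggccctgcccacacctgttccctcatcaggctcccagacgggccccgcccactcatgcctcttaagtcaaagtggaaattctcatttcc
IFNL3: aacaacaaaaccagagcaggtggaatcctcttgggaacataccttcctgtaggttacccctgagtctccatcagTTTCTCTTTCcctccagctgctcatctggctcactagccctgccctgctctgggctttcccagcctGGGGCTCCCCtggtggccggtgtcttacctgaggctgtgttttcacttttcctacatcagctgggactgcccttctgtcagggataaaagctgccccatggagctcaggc
IFNB1: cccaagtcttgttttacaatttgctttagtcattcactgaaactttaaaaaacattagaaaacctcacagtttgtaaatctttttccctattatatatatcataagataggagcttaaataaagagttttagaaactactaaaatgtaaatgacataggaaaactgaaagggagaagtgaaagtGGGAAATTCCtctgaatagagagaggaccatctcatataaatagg
The IFNL1 stretch is chr19:39296157-39296324 on the plus strand and holds 2 overlapping ISRE-type matches. The IFNL3 stretch is chr19:39245251-39245500 on the minus strand and holds 1 ISRE-type match and, nearer the gene, a κB match that reads on both strands. The same 250 bases of IFNL2, at chr19:39268146-39268395 on the plus strand, differ from those of IFNL3 by a single base, C31T, with IFNL2 first and positions counted from the 5′ end. The IFNB1 stretch is chr9:21077964-21078192 on the minus strand and holds 1 κB match. It also holds GAAA followed after 3 bases by a further GAAA, a spacing that the ISRE-type match used here does not cover. The lack of an ISRE-type mark in IFNB1 therefore does not show that such an element is absent. Of 35116 RefSeq windows of 250 bases before a start, 3.02% held the ISRE-type match and 9.96% the κB consensus. A window was found for 10 of 11 genes, the members and IL10RB, with none for IFNAR2. Among the receptor windows, which were not shortened, that of IFNGR2 held κB matches at 3 positions, and none held the ISRE-type match. The IFNGR2 window begins at chr21:33403163, inside the gene as deposited, which begins at 33402896 on the plus strand. A match here is a match of letters and no measured binding.

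IFNL2 and IFNL3 are also nearly alike in their coding sequence, which bears on how reads are divided between them. Their 603 coding bases are 98.2% identical, against 74.6% between IFNL1 and IFNL3, and the longest stretch without a difference is 125 bases. The coding bases 350 to 409 of both genes (1 GENCODE 29 transcript of each) are shown as a stretch that tells them apart, with the 3 differing bases in capitals.
IFNL2: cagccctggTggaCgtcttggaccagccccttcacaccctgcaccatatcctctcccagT
IFNL3: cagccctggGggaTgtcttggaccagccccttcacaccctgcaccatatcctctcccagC
Of the 100-base stretches of the IFNL2 coding sequence, 6.55% occur unchanged in IFNL3, so the 2 genes are given one by one and as a sum.

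Gene positions are those of hg38 as the table gives them. Values are FPKM (fragments per kilobase, scaled to library size) as deposited, and the reads behind them, which were recovered as whole numbers. The libraries held 31008429 to 37624399 reads on genes. Low values were more often even than odd, with 23817 values of 2 reads against 13386 of 1 and 6290 of 3, so 2 reads were taken as 1 fragment wherever counting error is given. HTRA2 lay between 13.3 and 17.2 FPKM in the 9 libraries labelled WT and between 7.18 and 7.44 in the knockdown, a log2 fold change of -0.98 (limma, adjusted p = 2.8e-05). The epithelial genes KRT8, KRT18, CDH1 and EPCAM were abundant, but CDX2, which defines intestinal epithelium, had 0 reads in all 12 libraries and CDX1, VIL1, KRT20 and GPA33 had at most 2 in any. Knockdown library 2 had the lowest share of mitochondrial reads, 2.95% against 3.69% to 4.68% in the others. The values are from bulk RNA, in which fewer expressing cells and less RNA per cell cannot be told apart.

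Among the ligands, transcripts of the λ interferons were present and highest in the HTRA2 knockdown, whereas IFNB1 was almost without reads. IFNL1, which encodes IFN-λ1 (ENSG00000182393, chr19:39296325-39298673, plus strand), had 0, 2 and 8 reads in the medium libraries. The TNF-α libraries held 8, 12 and 26 reads, those of 5-OH-TMT 16, 13 and 20, and those of the knockdown 75, 48 and 47. Every knockdown library lay above every other library, while the TNF-α and 5-OH-TMT groups overlapped. As FPKM the means were 0.120 ± 0.149 (SD, n = 3) in medium, 0.506 ± 0.284 for TNF-α, 0.535 ± 0.111 for 5-OH-TMT and 1.83 ± 0.518 for the knockdown. Against TNF-α, IFNL1 rose in the knockdown by 1.75 on the log2(FPKM + 0.1) scale (SE 0.45, limma, Benjamini-Hochberg adjusted p = 0.020). The ratio of reads, corrected for depth, was 3.58, with a 95% interval of 2.24 to 5.95 that covers counting error only. The call was lost without TNF-α library 1 (adjusted p = 0.076), without TNF-α library 2 (0.060) and without knockdown library 1 (0.083), and it was kept without each of the other 3.

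IFNL2 and IFNL3, which encode IFN-λ2 and IFN-λ3, were close to silent outside the knockdown. IFNL3 (ENSG00000197110, chr19:39243553-39245129, minus strand) had 14, 8 and 17 reads in the knockdown, 0, 0 and 2 both in medium and after TNF-α, and none after 5-OH-TMT. IFNL2 (ENSG00000183709, chr19:39268514-39270092, plus strand) had 22, 10 and 2 reads in the knockdown, 0, 0 and 2 in medium, none after TNF-α alone and 2 in each 5-OH-TMT library. The 3 knockdown libraries were thus the highest for IFNL3, and for IFNL2 libraries 1 and 2 were, while library 3 had no more than a 5-OH-TMT library. The sum of both genes was 36, 18 and 19 reads in the knockdown, 0, 0 and 4 in medium, 0, 0 and 2 after TNF-α alone and 2 in each 5-OH-TMT library, so that for the sum the knockdown did not overlap any group.

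Both genes passed the filter on low values only through the knockdown libraries, so their calls add no count in support. Against TNF-α the fitted log2 fold change was 2.20 for IFNL3 (SE 0.42, limma, adjusted p = 0.0037) and 2.09 for IFNL2 (SE 0.54, adjusted p = 0.020), sizes that depend on the constant added before the log. From the reads, 39 against 2, IFNL3 was 18.9 times as high as with TNF-α, with a 95% counting interval of 3.10 to 803. With no read in the TNF-α group, IFNL2 was at least 5.50-fold higher in the knockdown, setting the group of 3 libraries at 3 fragments (6 reads). That bound fell to 2.91 without knockdown library 1 and rose to 5.82 and 7.77 without library 2 and library 3. The IFNL2 call was lost without any 1 of the TNF-α libraries (adjusted p = 0.050, 0.056 and 0.051 for libraries 1 to 3) or without knockdown library 2 (0.053). Without knockdown library 1 it fell under the filter, as IFNL3 did without knockdown library 1 or 3.

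The type I ligands gave no such pattern. IFNB1, the interferon-β gene (ENSG00000171855, chr9:21077105-21077963, minus strand, 1 exon), had no read in medium or in the knockdown, 0, 0 and 2 after TNF-α and 2, 0 and 1 when 5-OH-TMT was added. The 0 reads among the 107780165 of the knockdown group allow up to 0.0643 FPKM for counting error, and no fold is given because all groups lay at or under 6 reads. IFNE, the epithelial interferon-ε (ENSG00000184995, chr9:21480839-21482313, minus strand), had 0, 0 and 4 reads in medium, 8, 0 and 2 after TNF-α, none after 5-OH-TMT, and in the knockdown 0, 5 and 2. The groups overlapped, the gene was under the filter, and in a fit of all genes with reads its adjusted p was 0.52 or more in the 4 comparisons. IFNE lies within the locus of MIR31HG, a noncoding RNA on the same strand with 12 to 40 reads per library, but shares no exon base with it. Of the 17 other interferon ligand genes, 16 had 0 reads in all 12 libraries, among them IFNG, IFNW1, IFNL4 and the 13 IFNA genes. The exception was IFNK, the keratinocyte interferon, with 6 and 2 reads in TNF-α libraries 1 and 2 and 4 in knockdown library 1.

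**Figure D1:**
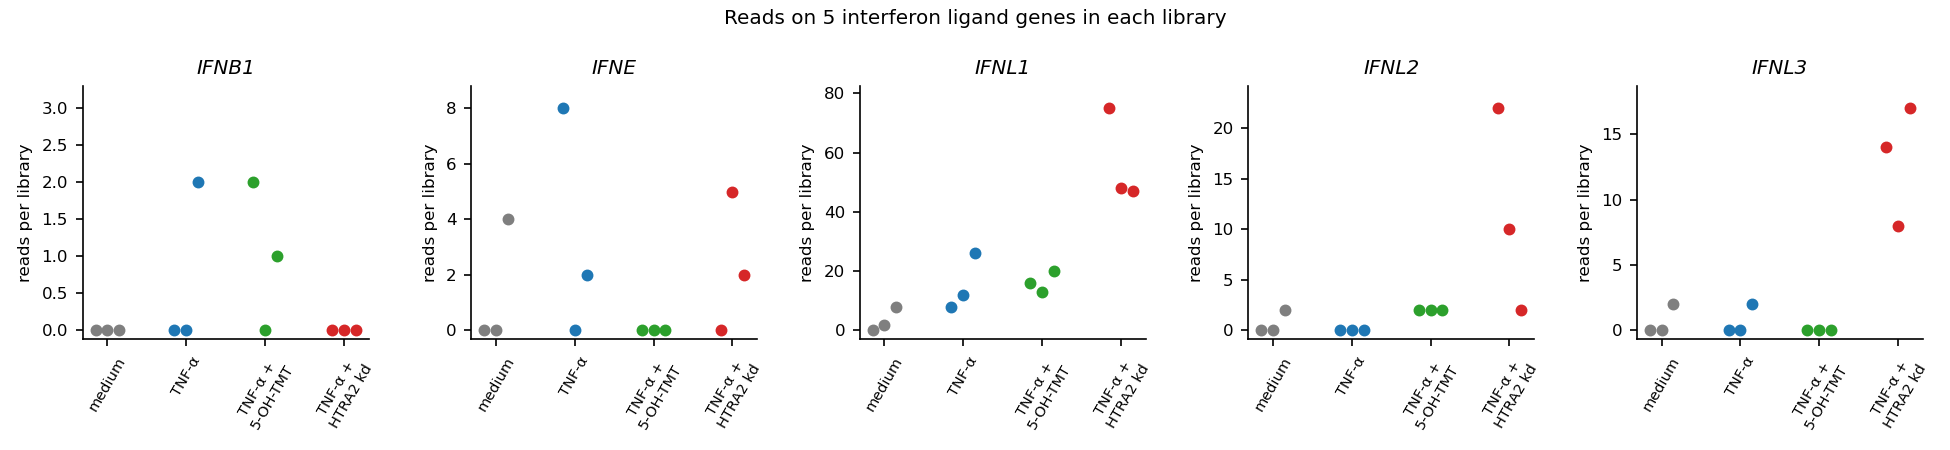
Reads per library (vertical axis, linear, a separate scale in each panel) for the 5 ligand genes in the 4 groups, with 1 point per library. For IFNL1 and IFNL3 the 3 knockdown points lie above all others, for IFNL2 only 2 of them do, and no IFNB1 point exceeds 2 reads.

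IFNGR2, IFNAR1, IFNGR1 and IFNLR1 were more abundant than any ligand in all 4 groups. IFNAR2 was listed at 1.13 FPKM in the knockdown, below IFNL1 at 1.83, but most of its exon bases are shared with other genes. Both chains of the IFN-γ receptor were highest in the knockdown. IFNGR2, the signalling chain of that receptor (ENSG00000159128, chr21:33402896-33479348, plus strand), had 23.5, 23.9 and 25.6 FPKM in medium and 48.4, 49.2 and 43.9 with TNF-α. After 5-OH-TMT it stood at 55.5, 50.8 and 60.2 FPKM, and in the knockdown at 82.7, 78.0 and 80.3. The 4 groups stood in steps without overlap. TNF-α raised IFNGR2 by 0.95 on the log2 scale (SE 0.07, limma, adjusted p = 9.8e-06) and the knockdown raised it by a further 0.77 over TNF-α (SE 0.07, adjusted p = 4.2e-05). Of its exon bases, 12.8% are shared with TMEM50B on the opposite strand, and whether the counting used strand is not given in the sources used here.

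IFNGR1, the ligand-binding chain (ENSG00000027697, chr6:137197484-137219449, minus strand), had 7.99, 6.93 and 7.57 FPKM in medium and 11.9, 12.03 and 12.4 with TNF-α. With 5-OH-TMT it had 11.8, 11.4 and 12.7 FPKM, overlapping the TNF-α libraries, and in the knockdown 20.5, 21.4 and 19.9. It rose by 0.69 with TNF-α (SE 0.07, limma, adjusted p = 0.00010) and by 0.76 in the knockdown over TNF-α (SE 0.07, adjusted p = 3.7e-05). The ratio of IFNGR2 to IFNGR1 was 3.26 ± 0.275 in medium, 3.89 ± 0.311 for TNF-α, 4.64 ± 0.156 for 5-OH-TMT and 3.91 ± 0.228 for the knockdown (SD, n = 3). Thus the 2 chains kept nearly the same proportion between TNF-α and the knockdown, while no read of IFNG itself was found in any library.

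The chains of the type I receptor moved less. IFNAR1 (ENSG00000142166, chr21:33324477-33359862, plus strand) had 18.8, 15.0 and 18.7 FPKM in medium, 22.4, 24.5 and 23.0 after TNF-α, 18.2, 20.4 and 20.5 after 5-OH-TMT, and in the knockdown 25.6, 30.2 and 25.8. The knockdown libraries were the highest and those of TNF-α came next, with the 5-OH-TMT libraries below both. It rose by 0.42 with TNF-α (SE 0.10, limma, adjusted p = 0.034), a call lost without medium library 2 (0.097) or without TNF-α library 1 (0.069), 2 (0.13) or 3 (0.089). Its difference between knockdown and TNF-α was 0.22 (SE 0.10, 95% interval 0.0044 to 0.43, adjusted p = 0.15) and between 5-OH-TMT and TNF-α -0.24 (SE 0.10, adjusted p = 0.20), neither of which passed the test.

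IFNAR2, the partner chain (ENSG00000159110, chr21:33229901-33265675, plus strand), was listed at 0.392 to 0.790 FPKM in medium, 0.839 to 1.04 after TNF-α, 0.770 to 0.982 after 5-OH-TMT, and in the knockdown 0.951 to 1.33. Of its 4614 exon bases, 83.2% are shared with other annotated genes, mainly AP000295.1, a readthrough gene of IFNAR2 and IL10RB on the same strand, and IL10RB-DT on the opposite one. AP000295.1 shares all of its exon bases with the pair and had 0 reads in every library, and what the counting did with reads on shared bases is not stated, so the low level of IFNAR2 cannot be compared with that of other chains. Between groups it was 0.63 higher with TNF-α (SE 0.21, adjusted p = 0.15) and 0.21 higher in the knockdown than with TNF-α (SE 0.21, adjusted p = 0.55), neither past the test in limma.

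IFNLR1, the chain specific to the λ interferons (ENSG00000185436, chr1:24154157-24187959, minus strand), was expressed at nearly one level throughout. It had 4.63, 4.50 and 3.999 FPKM in medium, 4.26, 4.94 and 4.35 after TNF-α, 4.74, 4.92 and 5.00 after 5-OH-TMT, and in the knockdown 4.69, 3.62 and 4.71. The knockdown against TNF-α gave a difference of -0.06 (95% interval -0.30 to 0.17, limma, adjusted p = 0.75). Its partner IL10RB had 24 to 32 reads in the medium and TNF-α libraries, 10, 28 and 27 with 5-OH-TMT and 56, 31 and 36 in the knockdown. The knockdown lay above TNF-α in all 3 libraries for IL10RB, but the difference of 0.36 (SE 0.30, limma, adjusted p = 0.45) did not pass the test, and 38.1% of its exon bases are shared with AP000295.1.

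**Figure D2:**
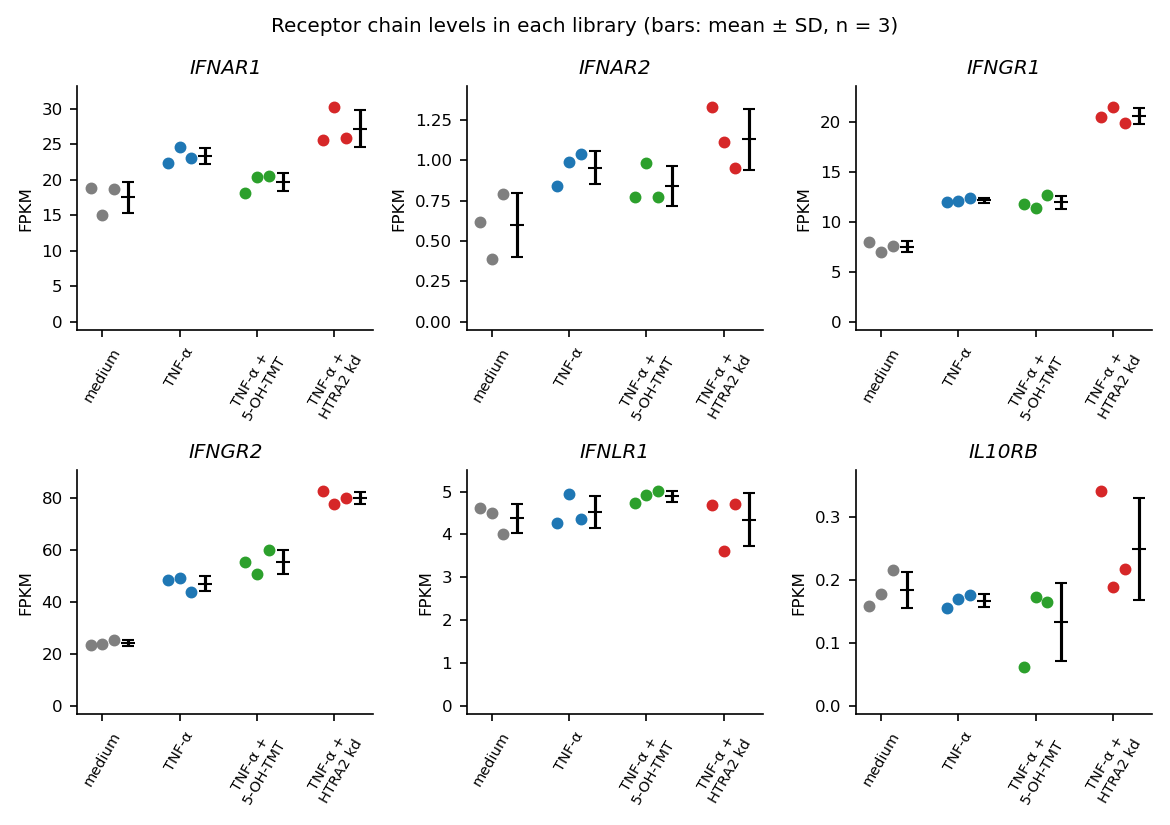
FPKM per library (vertical axes, linear from 0, a separate scale in each panel) of the 5 receptor chains and IL10RB in the 4 groups, with points for libraries and bars for mean ± SD (n = 3). IFNGR1 and IFNGR2 stand highest in the knockdown, while the groups of IFNLR1 lie between 3.62 and 5.00.

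By level per length, the chains stood in the same order in all 4 groups, IFNGR2 first, then IFNAR1, IFNGR1 and IFNLR1, and neighbours in this order did not overlap within any group. IFNAR2 is left out of the order because of its shared exon bases, and IL10RB, which is not among the 10 genes, is left out too. The distance between IFNGR2 and IFNAR1 widened from 1.40 ± 0.174 times in medium to 2.02 ± 0.132 for TNF-α, 2.83 ± 0.296 for 5-OH-TMT and 2.97 ± 0.342 for the knockdown (SD, n = 3). IFNL1, the most abundant ligand, reached 1.83 ± 0.518 FPKM in the knockdown, below the 4.34 ± 0.623 of its receptor chain IFNLR1. The other λ receptor chain, IL10RB, was listed below IFNL1 there, at 0.249 ± 0.0810 FPKM, with 38.1% of its exon bases shared with AP000295.1. IFNL3 at 0.465 ± 0.162 and IFNL2 at 0.426 ± 0.379 FPKM followed IFNL1 in the knockdown and overlapped each other. The receptor genes IFNAR2, IFNAR1 and IFNGR2 lie with IL10RB within 249 kb of chromosome 21, and the 3 λ genes lie in 55.1 kb of chromosome 19.

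Counted over the comparisons, 8 of the 10 genes passed the filter of a mean of at least 0.1 FPKM, IFNB1 and IFNE being the other 2. With TNF-α against medium, IFNAR1, IFNGR1 and IFNGR2 rose and none fell at an adjusted p under 0.05, where 4.1% of all 18079 genes tested were called and 3.22% were higher. IFNL1 was 1.58 higher (SE 0.45) with an adjusted p of 0.083, and without medium library 3, which held 8 of the 10 medium reads, it passed at 0.013. With 5-OH-TMT against TNF-α none of the 8 was called, against 0.0387% of all genes, or 0.0332% higher. IFNGR2 came nearest, 0.23 higher (SE 0.07, adjusted p = 0.13). In the knockdown against TNF-α, IFNL1, IFNGR1 and IFNGR2 were called higher of the 6 genes that did not need the knockdown libraries to pass the filter, where 17.4% of all genes were called and 9.35% were higher. IFNL2 and IFNL3, which needed them, were also called and are not read against that share. The 3 comparisons share the TNF-α libraries.

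Knockdown and 5-OH-TMT, each with TNF-α, were also compared directly. IFNL3 was higher in the knockdown by 2.46 (SE 0.42, limma, adjusted p = 0.0029), and by at least 6.38-fold in reads against a 5-OH-TMT group without any. IFNGR1 was higher by 0.78 (SE 0.07, adjusted p = 6.0e-05), IFNGR2 by 0.54 (SE 0.07, adjusted p = 0.00073) and IFNAR1 by 0.46 (SE 0.10, adjusted p = 0.0096). IFNL1 was higher by 1.58 (SE 0.45, adjusted p = 0.036), a call that was lost whichever of the 6 libraries was left out, with adjusted p between 0.052 and 0.12. IFNL2, at 34 reads against 6, gave 1.27 (SE 0.54, adjusted p = 0.14), and without knockdown library 3 it passed at 0.020. Without IFNL2 and IFNL3, which had to be high in the knockdown to be tested, 4 of 6 genes were called, all higher. Of all genes, 15.3% were called and 7.85% were higher. IFNLR1 differed by -0.18 (SE 0.11, adjusted p = 0.31).

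The separation of the libraries was read gene by gene from a two-sided exact permutation test, in which 3 libraries against 3 cannot give a p below 0.1. In the knockdown against TNF-α, IFNL1, IFNAR1, IFNGR1 and IFNGR2 reached that smallest p, with every knockdown library above every TNF-α library, as in 17.5% of all genes tested. IFNL2 and IFNL3 were separated in the same way, but having passed the filter through the knockdown libraries they are not read against that share. The exact p was 0.3 for IFNAR2 and 0.8 for IFNLR1, whose groups overlapped. With TNF-α, IFNAR1, IFNAR2, IFNGR1 and IFNGR2 lay above medium without overlap, as did 11.1% of all genes. With 5-OH-TMT, IFNGR2 lay above TNF-α (16.3% of all genes) and IFNAR1 below it (15.5%), and IFNL2 lay above it by 2 reads per library against 0. Against 5-OH-TMT, the knockdown lay above for IFNL1, IFNAR1, IFNGR1 and IFNGR2 (18.2% of all genes) and below for IFNLR1 (17.6%), with IFNL3 above as well under the same limit.

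**Figure D3:**
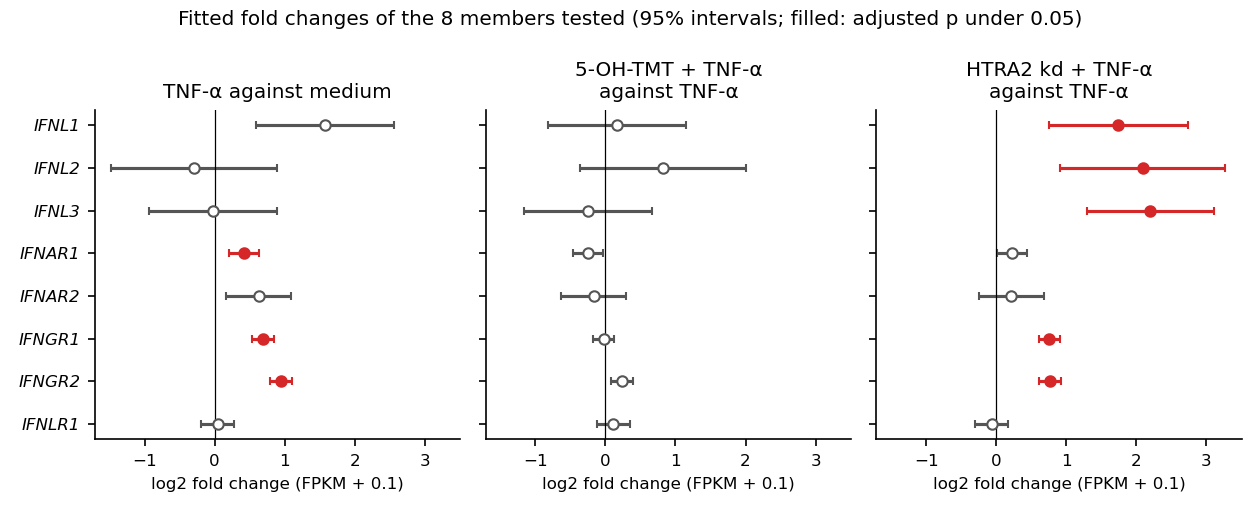
Fitted log2 fold changes (horizontal axis, of FPKM + 0.1) with 95% intervals for the 8 genes tested, in 3 panels for TNF-α, 5-OH-TMT and HTRA2 knockdown, filled where the adjusted p is under 0.05. The λ ligands, at 1.75 to 2.20, and both IFN-γ receptor chains, at 0.76 and 0.77, lie above 0 in the knockdown panel, and no gene is filled in the 5-OH-TMT panel. IFNL2 and IFNL3 passed the filter only through the knockdown libraries, and their sizes depend on the constant added before the log.

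The genes that act behind these receptors were counted from short lists, which were chosen with earlier results of these data known. Over all genes tested, 3.22% were called higher with TNF-α against medium and 0.0332% with 5-OH-TMT against TNF-α. In the knockdown 9.35% were called higher against TNF-α and 7.85% against 5-OH-TMT. Among the receptor kinases and the subunits of ISGF3, 3 of the 5 genes described here rose in the knockdown against TNF-α and none fell. STAT2 rose by 0.81 (SE 0.07), IRF9 by 1.26 (SE 0.25) and JAK1, the kinase common to all interferon receptors, by 0.42 (SE 0.08). JAK2, at 0.58 (SE 0.25, adjusted p = 0.13), and TYK2, at 0.27 (SE 0.11, adjusted p = 0.13), did not pass. None of these 5 passed with TNF-α against medium, where JAK1 came nearest at 0.30 (SE 0.08, adjusted p = 0.054), or with 5-OH-TMT against TNF-α. In the knockdown against 5-OH-TMT, STAT2 was higher by 0.63 (SE 0.07, adjusted p = 0.00016) and JAK1 by 0.39 (SE 0.08, adjusted p = 0.0068), and the other 3 did not pass, IRF9 at 0.78 (SE 0.25, adjusted p = 0.058).

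Of 3 feedback genes, 2 rose in the knockdown over TNF-α. USP18, which curbs signalling at IFNAR2, went from 3.76, 3.16 and 4.18 FPKM to 12.5, 10.4 and 11.5, a rise of 1.61 (SE 0.11, limma, adjusted p = 1.0e-05). SOCS1, an inhibitor of the JAK kinases, rose by 0.97 (SE 0.15, adjusted p = 0.0011), and SOCS3 gave 0.16 (SE 0.09, adjusted p = 0.26). SOCS3 was the gene of the 3 that rose with TNF-α, by 0.43 (SE 0.09, adjusted p = 0.015). None of the 3 passed with 5-OH-TMT against TNF-α, and in the knockdown against 5-OH-TMT only USP18 did, 1.30 higher (SE 0.11, adjusted p = 5.1e-05).

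Of 14 genes that sense nucleic acids or switch on interferon genes, 8 rose in the knockdown and none fell, with a median of 0.48, beside -0.0034 for all genes tested. IFIH1, a sensor of double-stranded RNA, rose by 1.38 (SE 0.12, limma, adjusted p = 2.4e-05), IRF7, a transcription factor for interferon genes, by 1.23 (SE 0.13) and TLR3, an endosomal RNA receptor, by 1.22 (SE 0.22). With TNF-α against medium 5 of the 14 rose, led by IKBKE, a kinase of IRF3 and IRF7, which went from 4.53, 4.89 and 4.30 FPKM to 15.4, 15.6 and 13.0. TICAM1, the TLR3 adaptor, followed at 0.73 (SE 0.12) and IFIH1 at 0.67 (SE 0.12). With 5-OH-TMT against TNF-α none of the 14 passed. In the knockdown against 5-OH-TMT 5 were higher and 1 lower, with a median of 0.24, the highest being IFIH1 at 1.38 (SE 0.12), IRF7 at 0.98 (SE 0.13) and DDX58, the RIG-I sensor, at 0.90 (SE 0.15). The lower one was MAVS, the adaptor of IFIH1 and DDX58, at -0.30 (SE 0.09, adjusted p = 0.035).

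All 24 genes on a list of type I and III interferon targets rose in the knockdown against TNF-α, with a median of 1.25 and a range of 0.38 to 3.13. OAS2, a sensor of double-stranded RNA, went from 2.53, 2.23 and 2.90 FPKM to 21.1, 18.6 and 19.98, a rise of 2.92 (SE 0.12, limma, adjusted p = 2.6e-07). IFI44L rose by 3.13 (SE 0.25) and XAF1 by 2.84 (SE 0.29), but both passed the filter on low values only through the knockdown libraries. They are among the 24 but add no count in support, and their sizes depend on the constant added before the log. With TNF-α against medium 5 of the 24 rose, with a median of 0.30, among them OAS1, OAS3 and OAS2 at 0.99 (SE 0.16), 0.96 (SE 0.10) and 0.83 (SE 0.12). With 5-OH-TMT against TNF-α none of the 24 passed and the median was 0.06. Against 5-OH-TMT, 23 of the 24 were higher in the knockdown, with a median of 1.38. The largest differences were IFI44L at 3.27 (SE 0.25) and XAF1 at 2.70 (SE 0.29), both under the same limit, and OAS2 at 2.69 (SE 0.12).

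Of 11 genes that respond more to IFN-γ, 9 passed the filter and all 9 rose in the knockdown against TNF-α, with a median of 2.26. Some of the 9, CXCL11 among them, passed the filter only through the knockdown libraries. Their rise adds no count in support, and the median includes them. CXCL10, a T-cell attracting chemokine, had no read in medium, 0.487, 0.546 and 0.205 FPKM with TNF-α and 6.06, 3.98 and 5.39 in the knockdown, 3.41 above TNF-α on the log2 scale (SE 0.34, limma, adjusted p = 6.1e-05). The guanylate-binding proteins GBP4 and GBP2 rose by 2.89 (SE 0.22) and 2.30 (SE 0.19). CXCL10, GBP4 and GBP2 averaged over 0.1 FPKM without the knockdown libraries too. With TNF-α against medium 4 of the 9 rose, among them CXCL10 (listed at 0 in medium), GBP1 at 1.75 (SE 0.13) and GBP4 at 1.69 (SE 0.22), and with 5-OH-TMT none did. Against 5-OH-TMT all 9 were higher in the knockdown, under the same limit. The largest differences were CXCL10 at 3.00 (SE 0.34), CXCL11 at 2.55 (SE 0.40) and GBP4 at 2.47 (SE 0.22). The size for CXCL11 depends on the constant added before the log.

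Markers of other cells moved with the knockdown in part. Summed over 8 leucocyte markers, the level was 0.118 to 0.212 FPKM with TNF-α and 0.357 to 0.872 in the knockdown. In medium it was 0.231 to 0.508 FPKM and with 5-OH-TMT 0.268 to 0.429, both overlapping the knockdown. CD3E, NCR1 and LILRA4 were at 0 in all libraries and PTPRC at 0 or 1 read in the TNF-α and knockdown libraries. Summed over 4 fibroblast markers the level was 1.001 to 1.32 FPKM with TNF-α and 2.603 to 3.21 in the knockdown, nearly all from COL1A1, with DCN at 0. Summed over 3 endothelial markers it was 1.42 to 1.57 FPKM with TNF-α and 2.21 to 3.62 in the knockdown, mostly from CDH5. Against TNF-α, 1 gene of each list was called higher (CD14, COL1A1 and CDH5), of 1, 1 and 2 that passed the filter. Of all genes tested, 9.35% were called higher. The part of such cells in the ligand and receptor values was not tested.

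**Figure D4:**
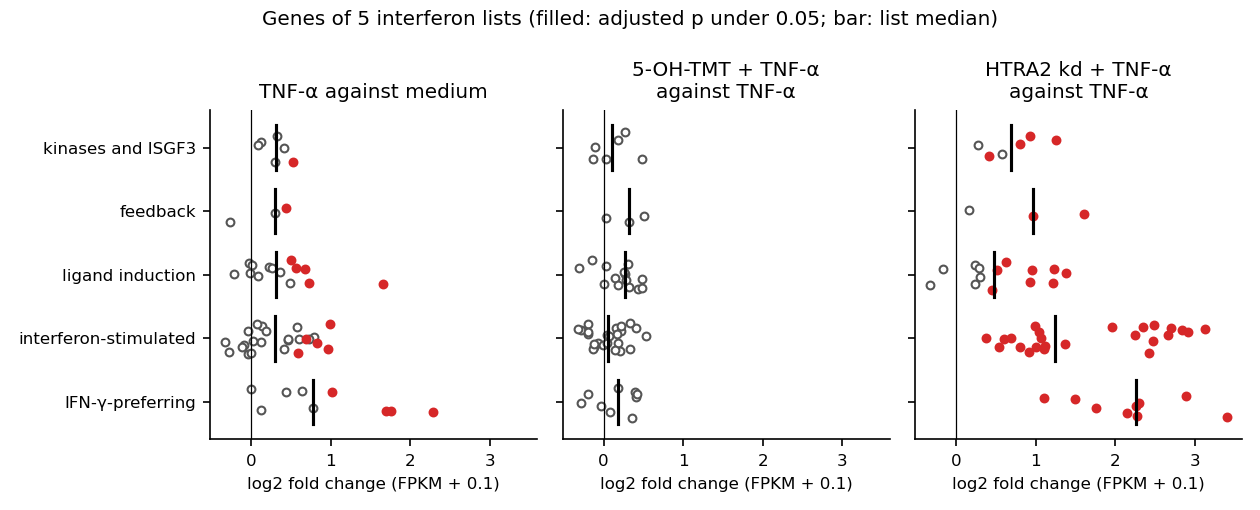
Log2 fold changes (horizontal axis, of FPKM + 0.1) of the genes on 5 lists, 1 point per gene, filled where the adjusted p is under 0.05, with a bar at each list's median. In the knockdown panel all 24 interferon-stimulated and all 9 tested IFN-γ-preferring genes are filled and lie above 0, and in the 5-OH-TMT panel none is filled. Some of these genes, with IFI44L, XAF1 and CXCL11 among them, passed the filter only through the knockdown libraries.

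Genes whose levels followed the ligand and the receptor chain with the smallest adjusted p in the knockdown, IFNL3 and IFNGR1, were taken from 11181 genes with a mean of at least 1 FPKM by Pearson correlation over the 12 libraries, which share the differences between groups. Nearest to IFNL3 were GANC (r = 0.96), the lysosomal protease gene CTSL (0.96), the glucose transporter gene SLC2A3 (0.95), NTN4 (0.95) and TIMP2, a metalloproteinase inhibitor (0.95). Nearest to IFNGR1 were LAMA3, a laminin chain (r = 0.99), the kinase gene LYN (0.99), FNDC3B (0.99), TMEM165 (0.99) and MXD1 (0.99).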

How the data were processed

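RNA of NCM460 cells was sequenced from poly(A)-selected libraries, 12 in all. FPKM values, 1 column for each library, were deposited by the authors beside gene lengths and positions. The submitters' processing notes name CASAVA 1.8, HISAT2 2.0.4, HTSeq 0.9.1 and hg38, and strandedness is not given in the sources used here. Of the 58735 genes, 99.9% had the position of GENCODE 29. The FPKM gave whole reads (tolerance 0.05) for 100% of values, 31008429 to 37624399 per library. Nothing says that replicates are separate cultures, so p-values measure only the spread between these samples, which may be technical.

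Genes averaging at least 0.1 FPKM (18079) were put on the log2(FPKM + 0.1) scale and modelled by group over all 12 libraries (R 4.3.3, limma 3.58.1, eBayes with trend, two-sided, 8 residual degrees of freedom), with Benjamini-Hochberg adjustment over all genes tested. On simulated data the fit was tested for known changes. The members, lists and naming rule were chosen with earlier results of these data known. Named are the 10 members, other ligands with reads, IL10RB, kinases, ISGF3 and feedback genes, per list and comparison the 3 called genes that moved most, and the 5 genes most like the ligand and the receptor chain with the smallest adjusted p. Some genes of the lists are not reported here. Counting intervals are exact binomial at 95% on fragments of 2 reads, and bounds set a group at 0 to 3 fragments. PCR copies are not independent molecules, so both cover counting error only. Motifs and alignments used Biopython 1.88 and Python 3.11.15. The alternatives were other pseudocounts (1 and 0.01), no filter or a mean of at least 1 FPKM, median-of-ratios and quantile scaling, a fit with no trend, a block for replicate number, voom on recovered reads, only the 2 groups compared, and each library left out.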

Additional observations from a re-analysis of the deposited data

How the results depend on the processing

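The calls of IFNGR1 and IFNGR2 with TNF-α and in both knockdown comparisons and that of IFNAR1 in the knockdown against 5-OH-TMT held in every alternative and with each library left out. IFNL3 was under the filter at a mean of at least 1 FPKM and without knockdown library 1 or 3, so nothing is read from its calls in the other fits. Of the 10 members, the count called with TNF-α was 3, and 2 to 3 under the alternatives and 2 to 4 with 1 library left out. The count with 5-OH-TMT was 0 throughout. In the knockdown against TNF-α it was 5, with IFNL2 and IFNL3 counted, and it was 2 at a mean of at least 1 FPKM, a filter that takes out the λ genes and IFNAR2, and 2 to 4 with 1 library left out. In the knockdown against 5-OH-TMT it was 5, IFNL3 counted, with 3 at a mean of at least 1 FPKM and 3 to 4 with 1 library left out. The 24 interferon-stimulated genes called became 20 to 24 under the alternatives and 23 to 24 with 1 library left out. The count was 20 at a mean of at least 1 FPKM, a filter that takes out list genes such as IFI44L and XAF1. In the 5-OH-TMT comparison 7 genes of all tested were called, but 1259 with only the 2 groups compared, 338 with voom, 127 at a mean of at least 1 FPKM, 4 with quantile scaling, 3 at a pseudocount of 1 and 1 without trend or with the block. No member was called in any of these, and the cause was not tested. Over all genes, the 3152 called in the knockdown against TNF-α became 2000 without knockdown library 1 and 2053 without TNF-α library 2, and the 2762 against 5-OH-TMT became 1313 to 1769 without 5-OH-TMT library 1 or 2 or knockdown library 1 or 2.

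The IFNAR1 call with TNF-α was lost under 5 of 10 alternatives (adjusted p from 0.0095 to 0.084). That of IFNL1 in the knockdown against TNF-α was lost at a pseudocount of 0.01 (0.17) and with no filter (0.052), and against 5-OH-TMT under 3 of 9 (0.0039 to 0.23). IFNL2 lost its call with only the 2 groups compared (0.067). Signs turned with 1 library left out in results that had not passed the test. IFNL3 with TNF-α ranged from -0.28 to 0.25, and was 0.10 without TNF-α library 1 or 2. IFNLR1 with TNF-α ranged from -0.020 to 0.085 (-0.017 without medium library 3), and in the knockdown from -0.13 to 0.059 (0.0014 without TNF-α library 2). With 5-OH-TMT, IFNL1 ranged from -0.17 to 0.51 and IFNGR1 from -0.068 to 0.0099.

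Libraries of the same number did not deviate together (correlations from -0.21 to 0.15, 4 of 12 pairs over 0.1, and 3 of 12 libraries closest to their own number), so the numbers were not read as a pairing. With the replicate number as a block, 2, 0, 5 and 5 members were called in the 4 comparisons. Of all 18079 genes tested, 600, 1, 2660 and 2062 were called in that fit. The member counts include IFNL2 and IFNL3 in the knockdown against TNF-α, and IFNL3 in the knockdown against 5-OH-TMT. Those genes passed the filter only through the knockdown libraries. Depth limits the ligands most, since the λ genes rest on 2 to 75 reads per knockdown library.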

Other observations

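Other receptors of the same structural class, class II cytokine receptors, were looked at beside the interferon receptor chains. F3, the tissue factor gene, had 116, 96.4 and 101 FPKM in medium and 212, 242 and 222 with TNF-α, a rise of 1.11 (SE 0.09, limma, adjusted p = 1.0e-05). With 5-OH-TMT it had 160, 170 and 183 FPKM, below every TNF-α library, but the difference of -0.40 (SE 0.09, adjusted p = 0.086) did not pass the test, and in the knockdown it had 229, 247 and 222. IL20RB, a chain of the interleukin-20 receptors, fell by 0.24 with TNF-α (SE 0.06, adjusted p = 0.038) and was 0.32 lower in the knockdown than with 5-OH-TMT (log2 fold change -0.32, SE 0.06, adjusted p = 0.0043). IL22RA1, the interleukin-22 receptor chain, differed by 0.42 (SE 0.18, adjusted p = 0.15) between knockdown and TNF-α. IL22RA2 had 0 reads in all libraries.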
